A study of Rattus norvegicus with 18 samples.

Results

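The genes described here are the collagen chains, the laminin chains and 20 named proteins of the extracellular matrix, chosen by gene symbol. The rule itself uses no measured value, though the set was proposed with earlier results of these data known. Among 14218 genes with a probe set of a single symbol, 70 met this rule: 41 collagen chains, 10 laminin chains and 19 of the named proteins. Each gene was read from its probe set with the highest mean over all arrays. The cells were NRK-52E, an established rat kidney line with features of proximal tubule epithelium, grown to confluence. They were exposed for 6, 24 or 72 h to 1.65 µM aristolochic acid (AA) in 0.1% DMSO, or to 0.1% DMSO alone, and the groups are named AA or DMSO with the hour. AA, a nitrophenanthrene of Aristolochia plants, forms DNA adducts and is known for injury to the proximal tubule with scarring of the kidney interstitium. Each of the 6 groups had 3 arrays. The labels call the arrays of a group biological replicates without saying which cultures shared a plate or day, so p-values reflect only the spread among the arrays of a group, which may be technical. All groups came from 1 cell line at 1 dose, with no interstitial fibroblasts of a kidney present.

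The extracellular matrix holds 2 main assemblies. Fibrillar collagens are wound as triple helices, secreted, trimmed and cross-linked by lysyl oxidases into the fibres of connective tissue, on which proteoglycans and fibril-associated collagens sit. Laminins, each a trimer of an alpha, a beta and a gamma chain, join type IV collagen, nidogen and perlecan in the basement membrane under epithelia. In the kidney, excess fibrillar collagen and fibronectin is the hallmark of interstitial fibrosis, while tubular cells normally rest on a basement membrane of laminin and type IV collagen.

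Of the 70 genes, 32 reached log2 4 on at least 3 of the 18 arrays and were tested: 13 collagen chains, 6 laminin chains and 13 other proteins. The other 38 lay near the floor of the background model. They were 28 collagen chains, 4 laminin chains (Lama1, Lama2, Lama4 and Lamc3) and 6 other genes (Dcn, Fbn1, Lum, Mmp2, Nid1 and Tnc). Of these, 37 had no array at log2 4, their means over 18 arrays ran from 1.88 to 3.49, and the highest single value was 4.30, for Mmp2. The chains of type VI collagen (Col6a1, Col6a2, Col6a3, Col6a5 and Col6a6) were all among them, as were Col2a1, Col7a1, Col15a1, Col18a1, Col4a4 and Col4a6. For these probe sets no change could be measured. Thbs1 was not assigned to any probe set by itself in the platform annotation, so Thbs1 is not analysed here.

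Facts of all arrays bear on what follows. RNA integrity was read from the control probe sets at both ends of beta-actin, as the 3' level minus the 5' level on the log2 scale. It was 1.85 to 2.16 in AA 72 h and 1.29 to 1.45 in DMSO 72 h, against 0.98 to 1.27 in the 4 earlier groups. The Gapdh difference was -0.12 to -0.04 in AA 72 h and -0.28 to -0.13 in DMSO 72 h. Of 16 proximal tubule markers on the array, 3 were tested and 13, Lrp2, Cubn and Slc34a1 among them, were near the floor on every array. Of 15 general epithelial markers, 4 (Krt8, Tjp1, Cdh2 and Ocln) were tested and 11, Cdh1 and Epcam among them, were near the floor on every array. Of 12 fibroblast and myofibroblast markers, Vim, Acta2, Tagln and S100a4 were tested, while Pdgfra, Thy1, Des and Fap were near the floor. The endothelial list had 1 of 7 markers tested (Tek), the immune list 2 of 8 (Cd68 and Cd14, with Ptprc near the floor) and the loop, distal and collecting duct list 0 of 8. The label of a proximal tubule line therefore rested on few of its own markers in these arrays.

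Promoter sequences are shown first for 2 pairs of genes on which the results turn. Lama3 and Lamb3 encode the alpha and beta chains of the laminin that anchors epithelia through hemidesmosomes, and were the chains with the highest AA over DMSO ratios at 72 h. Col4a1 and Col4a2 encode the chains of the common type IV collagen and are transcribed in opposite directions from 1 shared promoter. At 72 h the probe sets used differed in sign between these chains, while at 6 h and 24 h both were slightly negative and neither was called, and a second Col4a1 probe set at 72 h had the sign of Col4a2. Sequences are from RefSeq on GRCr8, written 5′ to 3′ on the gene's strand, from 250 bases before the annotated start to 50 after it. In the laminin windows, capitals mark matches to TGANTCA, the letters bound by AP-1 (Fos and Jun) factors, searched on both strands. The windows are chr18:3952517-3952816 (plus strand) for Lama3 and chr13:107362303-107362602 (plus strand) for Lamb3.
Lama3: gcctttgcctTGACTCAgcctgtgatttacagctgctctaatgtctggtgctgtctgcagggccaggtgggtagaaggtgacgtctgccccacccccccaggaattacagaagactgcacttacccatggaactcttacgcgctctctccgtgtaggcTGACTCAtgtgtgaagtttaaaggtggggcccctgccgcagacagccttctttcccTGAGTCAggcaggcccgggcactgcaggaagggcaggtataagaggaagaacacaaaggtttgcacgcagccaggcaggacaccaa
Lamb3: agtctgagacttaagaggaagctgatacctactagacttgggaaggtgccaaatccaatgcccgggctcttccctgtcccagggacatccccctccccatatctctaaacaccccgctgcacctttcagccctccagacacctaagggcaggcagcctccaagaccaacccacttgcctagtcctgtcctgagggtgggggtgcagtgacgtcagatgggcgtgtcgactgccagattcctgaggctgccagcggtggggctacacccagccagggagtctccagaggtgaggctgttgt
The Lama3 window held 3 matches, starting at bases -240, -92 and -36, and the Lamb3 window held 0. At least 1 match was found in 7.33% of all 33469 promoter windows of that length, and 3 or more in 0.0149% (5 windows). Of the 32 tested genes, 21 had a window, and Lama3 was the 1 of these 21 with a match. The start used for Lama3 lay 155 kb inside the first annotated base of the gene, so the window belongs to an internal start. A match is a string of letters, not a measured binding site.

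In the collagen pair, capitals mark the 176 bases that both windows share, read from opposite strands. The windows are chr16:84885347-84885646 (plus strand) for Col4a1 and chr16:84885471-84885770 (minus strand) for Col4a2, whose starts lie 77 bases apart.
Col4a1: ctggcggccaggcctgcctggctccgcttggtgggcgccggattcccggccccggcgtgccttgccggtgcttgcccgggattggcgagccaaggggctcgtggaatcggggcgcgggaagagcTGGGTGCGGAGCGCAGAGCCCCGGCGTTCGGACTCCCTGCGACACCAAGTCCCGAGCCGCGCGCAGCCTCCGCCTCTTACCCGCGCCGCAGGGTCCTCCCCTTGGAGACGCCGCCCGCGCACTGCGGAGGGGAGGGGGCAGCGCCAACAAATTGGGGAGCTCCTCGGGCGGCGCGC
Col4a2: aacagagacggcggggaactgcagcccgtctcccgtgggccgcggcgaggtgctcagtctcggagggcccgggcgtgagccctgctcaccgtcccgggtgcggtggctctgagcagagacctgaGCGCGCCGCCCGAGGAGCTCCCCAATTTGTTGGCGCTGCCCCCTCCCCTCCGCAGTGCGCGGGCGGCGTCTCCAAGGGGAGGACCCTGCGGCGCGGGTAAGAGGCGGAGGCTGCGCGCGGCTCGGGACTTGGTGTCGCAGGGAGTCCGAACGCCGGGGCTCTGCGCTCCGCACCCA
Each window held 2 copies of the GC box GGGCGG, searched on both strands. These are the same 2 sites in the shared bases, read once for each gene. The GC box was present in 33.1% of all windows and in 14 of the 21 windows of tested genes, with both windows of this pair counted. The CCAAT box was present in 37.5% of all windows and in 7 of the 21.

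The comparisons asked which matrix genes differed between AA and DMSO cells of the same hour. At 72 h, 10 of the 32 tested genes were higher in AA and 8 were lower. Of all 9016 genes tested, 27.4% were higher and 19.8% lower at that hour, and the 18 called matrix genes were 56.2% of the 32. In bulk RNA from a culture, a change in the number of cells that express a gene and a change in RNA per cell cannot be told apart. The median log2 difference was 0.04 for the matrix genes and 0.05 for all genes, and the median absolute difference 0.32 and 0.27. Called here means an adjusted p under 0.05 in limma, and ± after a log2 difference is its standard error. The arrays of AA all lay above or all below those of DMSO for 21 of the 32 genes (13 above, 8 below), against 59.6% of all genes. The higher beta-actin difference of AA 72 h, and summed proximal tubule marker levels of 43.9 to 44.4 in AA 72 h against 49.7 to 50.2 in DMSO 72 h, moved with these results. So did summed fibroblast marker levels of 69.4 to 69.8 in AA 72 h against 66.7 to 69.4 in DMSO 72 h, with Tagln (1.36) and Acta2 (0.74) called higher. The other tested fibroblast markers were not called: Vim averaged 14.46 in AA 72 h and 14.55 in DMSO 72 h, and S100a4 10.37 in AA 72 h and 10.46 in DMSO 72 h. Their part in the results was not tested.

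**Figure D1:**
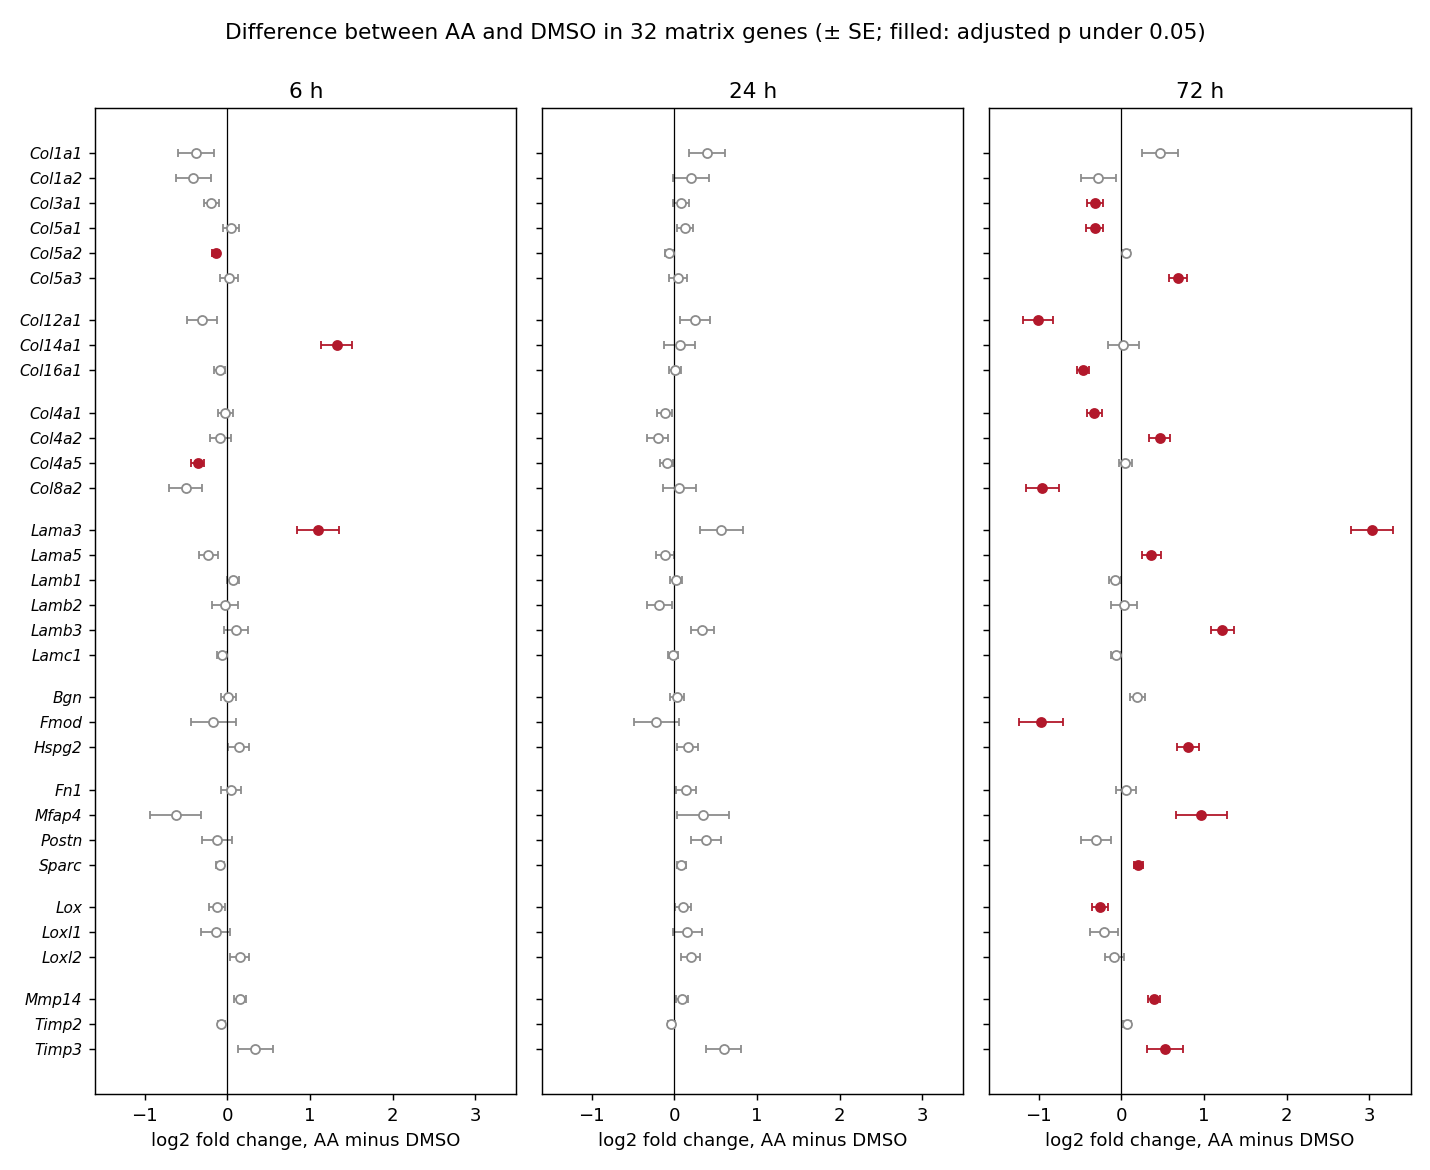
Log2 difference AA minus DMSO with its standard error for each of the 32 tested matrix genes at 6, 24 and 72 h, grouped by role, with filled points for genes past adjusted p 0.05. At 72 h the points spread from -1.01 (Col12a1) to 3.03 (Lama3), while at 24 h none is filled.

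Of 6 tested laminin chains, 3 rose and 0 fell at 72 h, and Lama3 and Lamb3 had the largest differences among the 10 matrix genes that rose. Lama3 was at log2 7.20, 7.57 and 7.83 in AA 72 h, against 5.10, 3.90 and 4.49 in DMSO 72 h. All 3 AA arrays lay above the DMSO arrays, of which 1 was under log2 4. The log2 difference was 3.03 ± 0.26 (adjusted p = 1.10e-08), an 8.18-fold higher value whose size depends on the background model, since DMSO 72 h lay close to the floor. Lamb3 was at 7.92, 8.32 and 8.48 in AA 72 h, against 7.10, 7.24 and 6.73 in DMSO 72 h, again with no overlap. Its difference was 1.22 ± 0.14, or 2.33-fold (adjusted p = 8.63e-07). Leaving out any 1 array kept the Lama3 difference between 2.73 and 3.33 and that of Lamb3 between 1.07 and 1.38.

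The remaining laminin chains form the trimers of most adult basement membranes. Lama5, the main alpha chain under mature tubules, was at 13.04, 13.38 and 12.84 in AA 72 h, against 12.73, 12.80 and 12.63 in DMSO 72 h. The groups did not overlap, and the difference was 0.36 ± 0.11 (adjusted p = 0.0123). That call was lost without AA 72 h replicate 2 (0.22) and without DMSO 72 h replicate 3 (0.32), and the mean of its probe sets, of which the others lay below the filter, gave 0.10 (adjusted p = 0.350). Lamc1, the gamma chain shared by most laminins, was at 13.51, 13.33 and 13.27 in AA 72 h, against 13.44, 13.45 and 13.42 in DMSO 72 h. These groups overlapped, with a difference of -0.06 that did not pass the test. Lamb1, a beta chain paired with it, was at 13.17, 13.20 and 13.16 in AA 72 h, against 13.23, 13.30 and 13.24 in DMSO 72 h (-0.08 ± 0.07, not called although the AA arrays all lay lower), and Lamb2, the other beta chain tested, differed by 0.03.

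**Figure D2:**
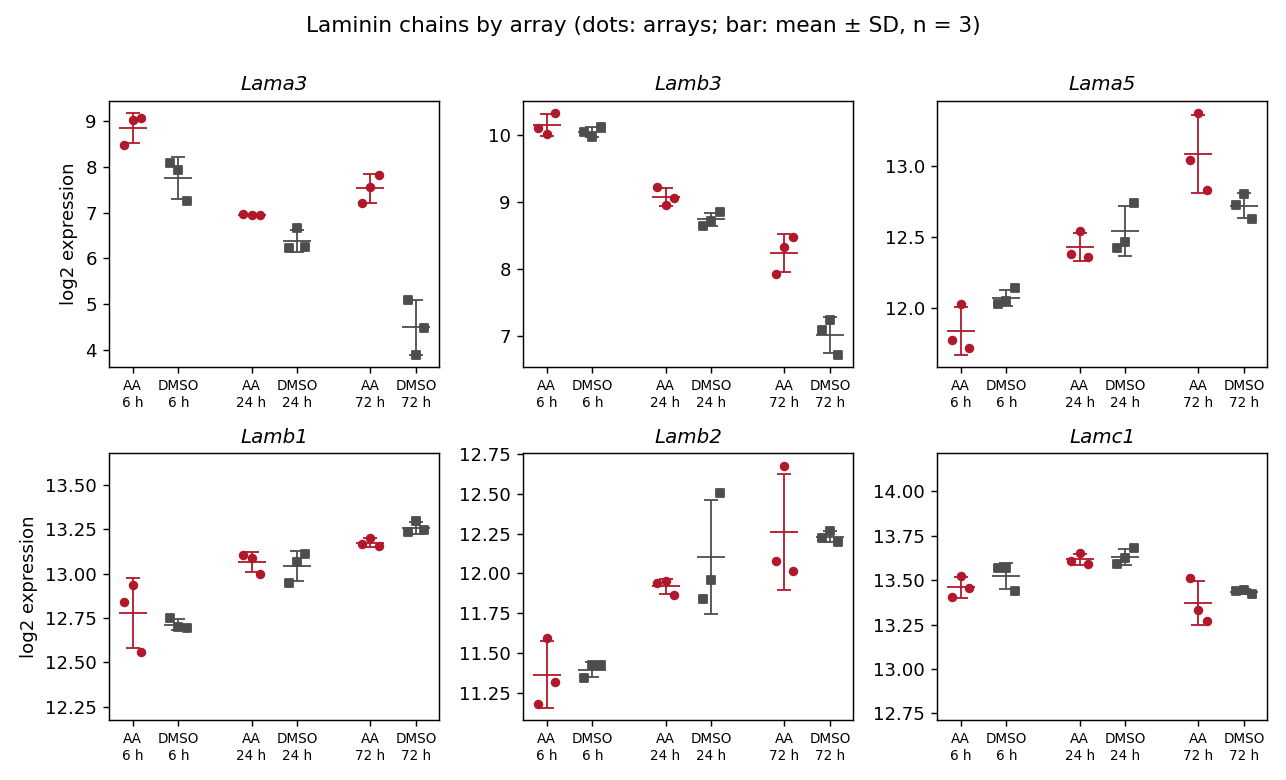
Log2 level of each tested laminin chain on every array, by hour, with AA left of DMSO, dots for arrays and bars for the mean ± SD (n = 3). At 72 h the 3 AA arrays of Lama3 (7.20 to 7.83) and Lamb3 (7.92 to 8.48) lie above all DMSO arrays, while Lamb2 and Lamc1 overlap.

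Among basement membrane and network collagens, 1 of 4 tested chains rose and 2 fell at 72 h. Col4a2 was at 10.13, 10.33 and 9.74 in AA 72 h, against 9.62, 9.65 and 9.54 in DMSO 72 h. The AA arrays all lay higher, and the difference was 0.46 ± 0.13 (adjusted p = 0.00525). It was 0.33 without AA 72 h replicate 2 and 0.63 without AA 72 h replicate 3, and stayed called in both cases. Col4a1 was at 9.76, 9.63 and 9.62 in AA 72 h, against 10.09, 10.04 and 9.86 in DMSO 72 h, with every AA array lower. Its difference was -0.33 ± 0.09 (adjusted p = 0.00453). A second Col4a1 probe set gave 0.14, and the mean of both gave -0.09 (adjusted p = 0.380), so the direction for Col4a1 depended on the probe set.

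Col4a5, a chain of the kidney's other type IV collagen network, differed by 0.05 at 72 h. Col8a2, a short-chain network collagen, was at 9.99, 9.72 and 9.86 in AA 72 h, against 10.84, 10.98 and 10.62 in DMSO 72 h. The groups stood well apart, and Col8a2 fell by 0.96 ± 0.20 on the log2 scale (adjusted p = 0.000578).

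Of 3 tested proteoglycans, 1 rose and 1 fell at 72 h. Hspg2, perlecan, the heparan sulfate proteoglycan of basement membranes, was at 9.52, 9.59 and 9.03 in AA 72 h, against 8.65, 8.58 and 8.49 in DMSO 72 h. All AA arrays were higher, with a difference of 0.81 ± 0.13 or 1.75-fold (adjusted p = 3.68e-05). Fmod, fibromodulin, which binds collagen fibrils, was at 6.51, 7.02 and 6.64 in AA 72 h, against 7.68, 7.81 and 7.60 in DMSO 72 h. It fell by 0.98 ± 0.27 (adjusted p = 0.00554) with no overlap. Bgn, biglycan, was at 13.64, 13.64 and 13.54 in AA 72 h, against 13.42, 13.49 and 13.33 in DMSO 72 h. The arrays did not overlap, yet the difference of 0.19 ± 0.09 did not pass the test (adjusted p = 0.0776).

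Of 6 fibrillar collagen chains, 1 rose and 2 fell at 72 h. Col5a3, a minor chain of the type V collagen that starts fibrils, was at 7.98, 8.16 and 7.97 in AA 72 h, against 7.46, 7.35 and 7.25 in DMSO 72 h. It was clearly separated, with a difference of 0.68 ± 0.11 or 1.60-fold (adjusted p = 4.08e-05). Col5a1, the main alpha chain of the same collagen, was at 10.93, 10.60 and 10.68 in AA 72 h, against 11.01, 11.24 and 10.94 in DMSO 72 h. Its groups nearly touched, and the difference was -0.32 ± 0.10 (adjusted p = 0.0123). The call was lost without AA 72 h replicate 2 (-0.26) and without DMSO 72 h replicate 2 (-0.24). It was also lost with the mean of its probe sets (-0.20, adjusted p = 0.0991), the second of which gave -0.08. Col5a2, the third chain, differed by 0.05 with the probe set used and by -0.25 with another, and was not called. Of the type V chains, the direction was thus the same over probe sets for Col5a1, differed for Col5a2, and rested on 1 probe set for Col5a3.

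Of type I and type III collagen, the bulk of scar tissue, no chain passed the test as higher in AA at 72 h. Col3a1, the type III chain, was at 14.43, 14.21 and 14.32 in AA 72 h, against 14.69, 14.65 and 14.57 in DMSO 72 h. Every AA array was lower, the difference was -0.32 ± 0.10 (adjusted p = 0.0109), and the call was lost without AA 72 h replicate 2 (-0.26). Col1a1, the main type I chain, was at 8.11, 7.82 and 7.91 in AA 72 h, against 7.82, 7.63 and 6.98 in DMSO 72 h. The lowest AA array only just exceeded the highest DMSO array, and the difference of 0.47 ± 0.22 did not pass the test (adjusted p = 0.0813). It did pass without DMSO 72 h replicate 1 (0.64) and as the mean of both Col1a1 probe sets (0.78), the second of which gave 1.08. Col1a2, its partner chain, was at 10.12, 9.35 and 9.83 in AA 72 h, against 10.24, 10.19 and 9.71 in DMSO 72 h. The groups overlapped and the difference was -0.28 ± 0.21.

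Collagens that decorate fibrils fell in 2 of 3 cases. Col12a1, which bridges fibrils to their surroundings, was at 10.77, 10.56 and 10.29 in AA 72 h, against 11.65, 11.72 and 11.28 in DMSO 72 h. It fell by 1.01 ± 0.18 on the log2 scale (adjusted p = 0.000160) with no overlap, and its other probe sets gave -1.78 and -1.26. The probe set with -1.26 had a mean of 3.94 over all arrays, close to the floor. Col16a1 was at 11.54, 11.39 and 11.39 in AA 72 h, against 11.91, 11.90 and 11.93 in DMSO 72 h. It fell by 0.47 ± 0.07 (adjusted p = 2.44e-05). Col14a1, a fibril-associated collagen close to Col12a1 in structure, differed by 0.02 at 72 h and was not called.

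Among matrix glycoproteins, 2 of 4 rose at 72 h. Mfap4, a microfibril-associated protein, was at 5.67, 6.45 and 6.51 in AA 72 h, against 5.72, 5.43 and 4.58 in DMSO 72 h. The groups overlapped by 1 array, and the difference was 0.97 ± 0.31 (adjusted p = 0.0154). It lost its call without AA 72 h replicate 2 (0.85), AA 72 h replicate 3 (0.82) or DMSO 72 h replicate 3 (0.63). Sparc, a collagen-binding matricellular protein, was at 15.28, 15.13 and 15.16 in AA 72 h, against 14.99, 15.02 and 14.94 in DMSO 72 h. Its rise of 0.21 ± 0.05 was small (adjusted p = 0.00236), and a second Sparc probe set gave 0.73. Fn1, fibronectin, was at 11.40, 11.21 and 11.20 in AA 72 h, against 11.33, 11.40 and 10.90 in DMSO 72 h. The groups overlapped, with a difference of 0.06 ± 0.12 that did not pass the test. Postn, periostin, differed by -0.31 ± 0.18 without a call, and passed the test without DMSO 72 h replicate 3 (-0.53).

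A matrix protease and an inhibitor were called at 72 h, both higher in AA. Mmp14, a membrane-bound collagenase, was at 13.69, 13.49 and 13.60 in AA 72 h, against 13.18, 13.28 and 13.14 in DMSO 72 h. It rose by 0.39 ± 0.07 (adjusted p = 0.000160), and its second probe set gave 0.40. Timp3, an inhibitor of matrix proteases that binds to the matrix, was at 10.998, 10.60 and 10.92 in AA 72 h, against 10.55, 10.26 and 10.13 in DMSO 72 h. Its difference of 0.53 ± 0.21 was at the edge of the test (adjusted p = 0.0498). Without AA 72 h replicate 1 (0.45), AA 72 h replicate 3 (0.49), DMSO 72 h replicate 2 (0.50) or DMSO 72 h replicate 3 (0.44) it was not called, nor with the mean of its probe sets (0.48). Timp2, a soluble inhibitor, was at 15.10, 15.11 and 15.07 in AA 72 h, against 15.00, 15.01 and 15.06 in DMSO 72 h (0.07 ± 0.04, not called).

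Lysyl oxidases cross-link collagen and elastin. Lox was at 14.46, 13.95 and 14.32 in AA 72 h, against 14.60, 14.53 and 14.37 in DMSO 72 h. The groups overlapped, the difference was -0.26 ± 0.10 (adjusted p = 0.0371), and it was not called without AA 72 h replicate 2 (-0.11), DMSO 72 h replicate 1 (-0.21) or DMSO 72 h replicate 2 (-0.24), nor with the mean of its probe sets (-0.20). Loxl1 (-0.21) and Loxl2 (-0.09) were not called.

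**Figure D3:**
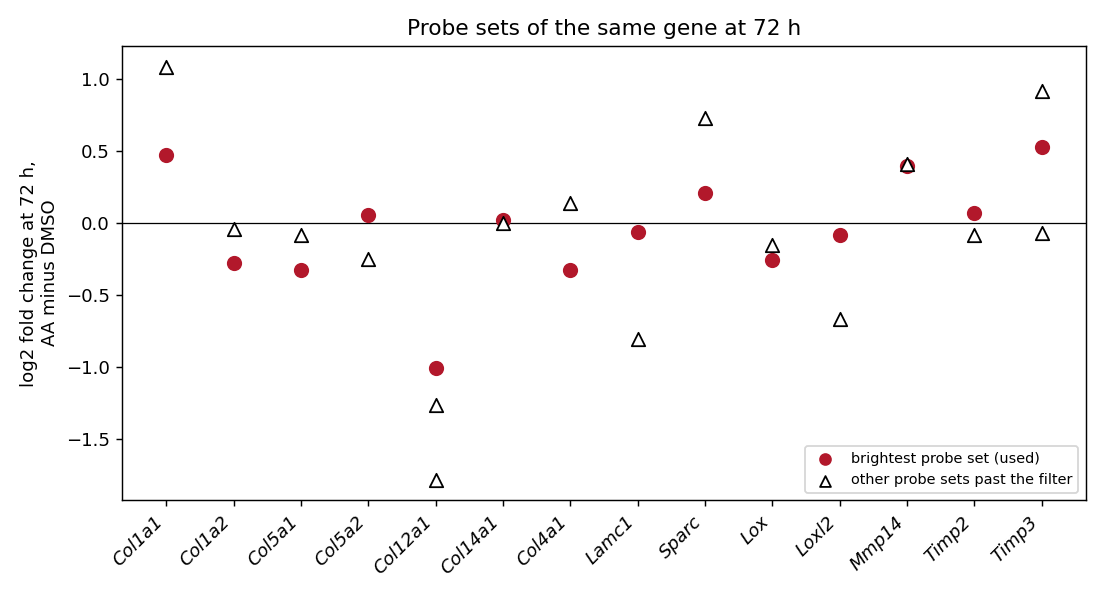
Log2 difference AA minus DMSO at 72 h for every probe set past the filter of the 14 matrix genes that had several, with the probe set used marked apart from the others. Col12a1 and Mmp14 keep 1 sign over their probe sets, while Col4a1 has -0.33 for the one used and 0.14 for the other.

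Agreement between probe sets of a gene was uneven. Of the 32 tested genes, 17 had 1 probe set and 15 had several, 51 probe sets in all. Lamc1 gave -0.06 with the probe set used and -0.81 with another, and Loxl2 gave -0.09 and -0.66, and the means of their probe sets were called (-0.44 for Lamc1, -0.38 for Loxl2), so neither could be called unchanged. Timp3 gave 0.53, 0.91 and -0.07 over the 3 probe sets past the filter. Probe sets of a gene can report different transcript ends or isoforms, which was not tested.

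At 6 h, 2 of 32 genes were higher in AA and 2 were lower, while 12.1% of all genes tested were higher and 12.4% lower. Summed fibroblast marker levels were 73.9 to 74.4 in AA 6 h and 71.7 to 73.1 in DMSO 6 h, with Tagln (0.44) and Vim (0.32) called higher. Summed proximal tubule marker levels were 45.2 to 46.6 in AA 6 h and 44.6 to 44.9 in DMSO 6 h, with Ggt1 (1.27) called higher. The part of these shifts in the results was not tested. Col14a1 was at 9.30, 9.30 and 10.27 in AA 6 h, against 8.57, 8.33 and 7.97 in DMSO 6 h. All AA arrays lay higher, with a difference of 1.33 ± 0.19 or 2.51-fold (adjusted p = 0.000265), and a second probe set gave 1.06. Lama3 was at 8.47, 9.03 and 9.06 in AA 6 h, against 8.09, 7.93 and 7.24 in DMSO 6 h. It rose by 1.10 ± 0.26 or 2.14-fold (adjusted p = 0.00581), while Lamb3 differed by 0.10 at that hour and was not called. Both lower genes were collagen chains that differed little. Col4a5 was at 12.84, 12.94 and 12.61 in AA 6 h, against 13.24, 13.09 and 13.13 in DMSO 6 h (-0.36 ± 0.08, adjusted p = 0.00321). Col5a2 was at 15.06, 15.18 and 15.06 in AA 6 h, against 15.26, 15.23 and 15.23 in DMSO 6 h. Its difference of -0.14 ± 0.05 (adjusted p = 0.0290) was not called in 10 of 14 alternative settings, among them those without AA 6 h replicate 1 (-0.12), AA 6 h replicate 3 (-0.12), DMSO 6 h replicate 1 (-0.13), DMSO 6 h replicate 2 (-0.15) or DMSO 6 h replicate 3 (-0.15).

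AA 6 h replicate 3 stood apart from its group in several matrix genes. Its beta-actin difference was 0.98, against 1.27 and 1.26 in the other AA 6 h arrays and 1.14 to 1.17 in DMSO 6 h. The part of this difference in the results was not tested. Mfap4 was at 10.38, 10.46 and 9.19 in AA 6 h, against 10.87, 10.32 and 10.72 in DMSO 6 h, and Col8a2 at 9.23, 9.28 and 8.35 in AA 6 h, against 9.50, 9.46 and 9.43 in DMSO 6 h. In both genes the third AA array was the lowest of all 6. Without that array the difference was 1.004 for Col14a1, 0.99 for Lama3 and -0.27 for Col4a5, and all 3 stayed called. Col8a2 was -0.51 with all arrays and -0.20 without it, and was not called in either case. It was called without AA 6 h replicate 1 (-0.65) or without AA 6 h replicate 2 (-0.67).

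At 24 h limma called 0 of the 32 genes, against 2.09% of all genes in either direction, both at adjusted p under 0.05. At an unadjusted p under 0.05 there were 4 matrix genes. The share of all genes at that looser threshold was not counted, so these 4 cannot be read as an excess. The 4 were Timp3 (0.60), Lama3 (0.57), Lamb3 (0.34) and Postn (0.38), all higher in AA without passing the adjusted test. Lama3 was at 6.97, 6.94 and 6.95 in AA 24 h, against 6.24, 6.66 and 6.25 in DMSO 24 h. Lamb3 was at 9.22, 8.95 and 9.06 in AA 24 h, against 8.65, 8.72 and 8.85 in DMSO 24 h. In both genes the AA arrays lay above the DMSO arrays.

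Whether the AA effect itself differed between hours was tested as a difference of differences. Between 24 h and 6 h, 1 of 32 genes was called, Col14a1 (-1.26), against 2.43% of all genes. It was not called without DMSO 6 h replicate 2 (-1.28) or AA 24 h replicate 2 (-1.24). Between 72 h and 24 h, 7 genes were higher and 6 lower, against 18.7% and 13.7% of all genes. The effect grew most for Lama3 (2.46), Lamb3 (0.88), Col4a2 (0.67), Hspg2 (0.65) and Col5a3 (0.64), and moved most the other way for Col12a1 (-1.26) and Col8a2 (-1.02).

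Matrix genes also moved with time in culture under DMSO alone, and these comparisons share arrays with those above. From 6 h to 24 h, 10 of 32 genes were higher and 8 lower at the later hour, against 28.3% and 30.5% of all genes. With arrays centred on their medians the split was 8 higher and 11 lower. From 24 h to 72 h, 11 were higher and 13 lower, against 17.2% and 17.1% of all genes, and after centring 12 and 9. The 24 genes called in that step were 75% of the 32. Markers moved in the same step: all 4 tested fibroblast markers fell (Tagln -1.49, Acta2 -1.08, S100a4 -0.92 and Vim -0.52), and the proximal tubule marker Aqp1 rose by 5.22 from near the floor. Their part in the results was not tested.

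The mean log2 level of Lama3 in AA was 8.85, 6.95 and 7.53 at 6, 24 and 72 h. In DMSO the means were 7.75, 6.39 and 4.50, with changes of -1.37 and -1.88 between successive hours that were both called. The last step was thus 0.58 in AA against -1.88 in DMSO. Lamb3 in AA stood at 10.15, 9.08 and 8.24, and in DMSO at 10.04, 8.74 and 7.02. The means of Lamb3 were lower at each later hour in both, and the DMSO steps of -1.30 and -1.72 were called. The 72 h rises of these chains in AA over DMSO were therefore measured against a control level that had fallen with time.

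A like pattern of the opposite sign was seen in Col12a1 and Col8a2, which climbed in DMSO, but not in every gene that did. From 24 h to 72 h in DMSO, Col14a1 climbed by 0.90, Timp3 by 0.83 and Loxl1 by 0.67. Their AA differences at 72 h were 0.02 and not called, 0.53 and called higher, and -0.21 and not called. Col12a1 in AA was at means of 10.51, 10.65 and 10.54 over the 3 hours, and in DMSO at 10.82, 10.40 and 11.55. The step from 24 h to 72 h was -0.11 in AA, against 1.15 in DMSO, where it was called. Col8a2 in AA was at 8.95, 9.56 and 9.86, and in DMSO at 9.46, 9.50 and 10.81, with a DMSO step of 1.31. Fmod climbed in both, with means of 3.57, 4.89 and 6.72 in AA and 3.74, 5.11 and 7.70 in DMSO. Its 6 h values were near the floor, and the change of its AA effect from 24 h to 72 h was not called.

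**Figure D4:**
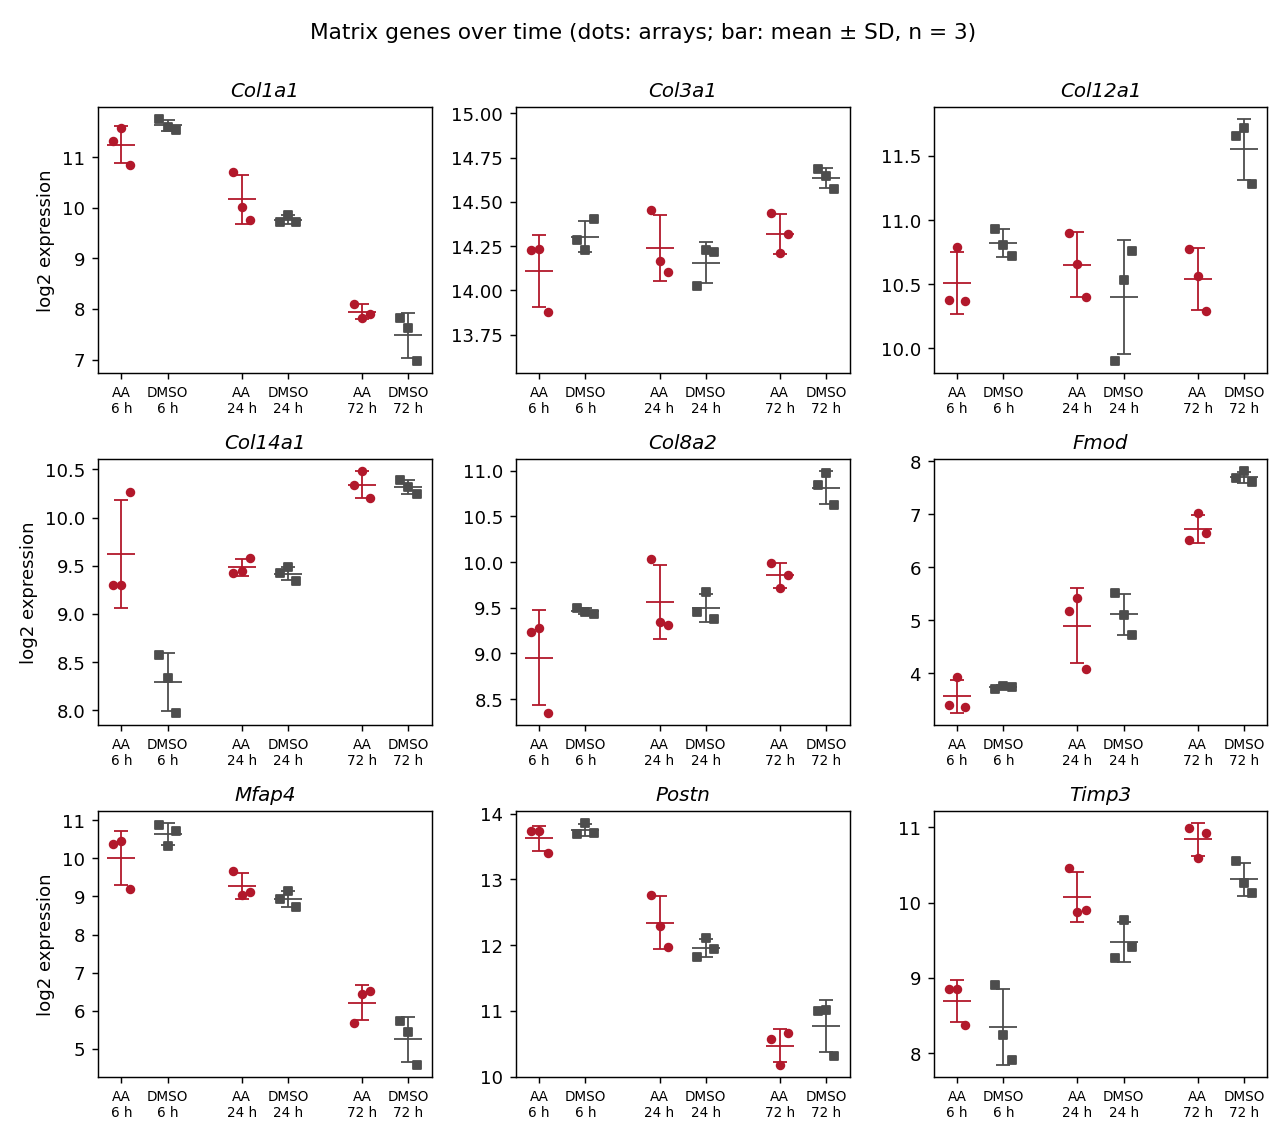
Log2 level of 9 matrix genes on every array at 6, 24 and 72 h, with AA left of DMSO at each hour, dots for arrays and bars for the mean ± SD (n = 3). The 3 AA 72 h arrays of Col12a1 (10.29 to 10.77) lie below its DMSO 72 h arrays (11.28 to 11.72), and the means of Col1a1, Mfap4 and Postn are lower at each later hour in both.

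Several matrix genes declined with time in DMSO without an AA difference at 72 h that passed the test. Col1a1 was at means of 11.25, 10.16 and 7.95 over 6, 24 and 72 h in AA, and at 11.63, 9.77 and 7.48 in DMSO. Postn was at 13.62, 12.34 and 10.47 in AA, and at 13.74, 11.96 and 10.78 in DMSO. All 4 DMSO steps of these genes were called (-1.86 and -2.29 for Col1a1, -1.79 and -1.18 for Postn). Fn1 stood at 12.98, 12.05 and 11.27 in AA, and at 12.94, 11.91 and 11.21 in DMSO, where both steps (-1.03 and -0.70) were called. Mfap4, which was called at 72 h, had the largest DMSO step among the 32 genes: its means were 10.01, 9.28 and 6.21 in AA, and 10.63, 8.93 and 5.24 in DMSO (-3.69 from 24 h to 72 h). Timp3 climbed in DMSO, with means of 8.69, 10.08 and 10.84 in AA and 8.35, 9.48 and 10.31 in DMSO. Col14a1 was at 9.62, 9.48 and 10.34 in AA, and at 8.29, 9.42 and 10.32 in DMSO. The Col14a1 arrays of AA and DMSO overlapped at 24 h and 72 h.

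Genes that work with these proteins were counted from lists, to be read against the 27.4% of all genes that were higher and the 19.8% that were lower at 72 h. Of 18 tested enzymes of matrix assembly, 5 rose and 1 fell at 72 h (median 0.08), led by P4ha1 (0.97), a subunit of the prolyl hydroxylase that stabilises collagen helices, then Plod3 (0.30) and Pcolce (0.28), with P4ha3 lower (-0.27). Of 18 tested cell surface receptors for matrix, 9 rose and 3 fell (median 0.20). Cd44, a hyaluronan receptor, differed by 2.30, with a DMSO 72 h mean of 4.64 that lay close to the floor. Itga5, the fibronectin receptor's alpha chain, differed by 1.40. Itga1, a collagen receptor chain, differed by -1.18, and Itga9, whose AA 72 h mean of 2.66 was near the floor, by -1.53. Of 15 other proteases and inhibitors, 4 rose and 5 fell (median 0.02), among them Mmp16 (-2.51), Adam10 (-1.87), Serpine2 (-1.09) and Plaur (0.64). Of 28 other matrix proteins, 5 rose and 7 fell (median 0.01), among them Mgp (-3.10), an inhibitor of calcification, Ltbp1 (-1.55), which holds latent TGF-beta in the matrix, Eln (-0.87), elastin, and Ecm1 (0.84). The median of all genes tested was 0.05.

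At 6 h the calls in these lists are to be read against 12.1% of all genes higher and 12.4% lower. P4ha1 (0.30) was the 1 enzyme called of 18. Of the receptors, 2 rose (Ddr1 0.25, Sdc4 0.16) and 2 fell (Itgav -0.49, Dag1 -0.26). Of the proteases and inhibitors, Adamts1 (1.56) and Plaur (0.56) rose while Ctsl (-0.29) and Reck (-0.25) fell. Of the 28 other matrix proteins, 0 rose and 6 fell, with Ogn (-0.54), Nid2 (-0.42), Agrn (-0.35) and Fbln5 (-0.24) the largest. At 24 h Lgals1 (0.53) was the 1 gene called in these 4 lists.

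The length of each gene was set beside its difference. The genomic span on GRCr8 was 235 kb for Lama3 and 3.06 kb for Mfap4, both higher at 72 h. The Lama3 span is that of the whole annotated gene, whereas the start of its promoter window lay 155 kb inside it. Which start the Lama3 probe set reports was not tested. Across the 32 matrix genes the Spearman correlation of span with the 72 h log2 difference was -0.01, against -0.26 across 8985 tested genes. The genes share arrays and are not independent, so these are descriptions. The median span was 46.7 kb for matrix genes that rose, 45.2 kb for those that fell and 57.4 kb for those not called, against 24.3 kb for all genes tested.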

How the data were processed

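Expression was measured on 18 Affymetrix rat arrays, 3 per group, from Trizol-extracted total RNA of NRK-52E cells. The authors deposited log2 values for each probe set on each array, made with GCRMA per the submitters' processing notes. This method models background by probe sequence, normalizes and summarises, and it leaves weak probe sets at a floor near log2 2 to 3. The version, the settings and the build were not given in the sources.

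The arrays held 31099 probe sets with 57 controls. In the platform annotation 20832 had 1 symbol, 436 several and 9831 none, and 20764 were matched by gene number to RefSeq names (GRCr8), which gave 14218 genes. A gene entered the tests if 3 or more arrays reached log2 4, as 9016 did. In R 4.3.3 with limma 3.58.1, 6 group means were fitted to all 18 arrays with an intensity trend (12 residual and 7.27 prior degrees of freedom), with Benjamini-Hochberg adjustment over all 9016 genes in each comparison and a threshold of adjusted p under 0.05. Precision is limited by the number of arrays: the median replicate SD was 0.11 on the log2 scale, and array medians ran from 4.03 to 4.20. In simulated data for AA against DMSO at 72 h with 9016 genes, 80.6% of 67 genes changed by log2 0.5 were recovered. So were 98.5% of 67 changed by 1 and 100% of 66 changed by 2, and 4.62% of calls were false. Only these genes were changed, with independent normal noise and no change with time. In the real data 27.4% of genes were called higher and 19.8% lower at 72 h, and genes share arrays. The simulated shares therefore need not hold for the real data.

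The members and lists were chosen with earlier results of these data known. Every tested member could be named. Of the other lists, up to 4 called genes per treatment comparison were named, largest difference first, and of time comparisons up to 5 each way. Exceptions chosen after their values were seen are Fn1 and Loxl1 in DMSO over time, the cell type markers, and the differences of AA effect beyond 5 each way, which are all given. Alternatives were median centring, quantile normalization, no filter, a filter at log2 6, no trend, the mean of all probe sets, a replicate block, fits on only the compared arrays, and leaving out each array.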

Additional observations from a re-analysis of the deposited data

Results flagged for a closer look

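The AA effect on 14 matrix genes differed between hours in the test of the difference itself (limma, adjusted p under 0.05). Between 24 h and 6 h this was Col14a1 (-1.26), whose AA over DMSO difference was 1.33 at 6 h and 0.06 at 24 h. Between 72 h and 24 h the AA effect became more positive for Lama3 (2.46), Lamb3 (0.88), Col4a2 (0.67), Hspg2 (0.65), Col5a3 (0.64), Lama5 (0.48) and Mmp14 (0.31). It became more negative for Col12a1 (-1.26), Col8a2 (-1.02), Postn (-0.69), Col16a1 (-0.48), Col5a1 (-0.45) and Col3a1 (-0.40). The Postn value (adjusted p = 0.0470) was not called in 11 of 20 alternative settings, Col3a1 and Lama5 in 8, Mmp14 in 7, Col5a1 in 5 and Col14a1 in 4. Lama3, Lamb3, Col4a2, Hspg2, Col5a3, Col12a1, Col8a2 and Col16a1 stayed called in all 20. RNA integrity, read from the beta-actin 3' minus 5' difference, was also most different between AA and DMSO at 72 h, and its part in these values was not tested.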

How the results depend on the processing

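Counts of called matrix genes at 6 h, 24 h and 72 h, in the difference of the AA effect between 72 h and 24 h, and in both DMSO time comparisons stayed within 1.5 times the reported count under every alternative run. The count for the difference between 24 h and 6 h was 1 as reported, and 0 with no filter on low values and 0 with only the compared arrays, where Col14a1 kept its value of -1.26. Leaving out 1 array gave 3 to 5 called genes at 6 h, 0 at 24 h, 13 to 18 at 72 h, 0 to 1 and 9 to 13 for the 2 differences of AA effect, and 16 to 18 and 19 to 21 for DMSO at 24 h against 6 h and 72 h against 24 h. The lowest counts at 72 h (13) and for the later difference (9) came without AA 72 h replicate 2. With the replicate block the counts were 5, 0 and 19 at 6, 24 and 72 h, 1 and 14 for the differences, and 18 and 24 for DMSO over time. The numbers did not pair the samples: 1 of 9 same-numbered pairs had a correlation of deviations above 0.1, and 4 of 18 arrays correlated best with their own number. Of 1176 alternative values for 78 called gene and comparison pairs, 1036 kept direction and call, 139 lost the call and 1 reversed: Timp2 in DMSO at 24 h against 6 h was 0.15, and -0.014 as the mean of its probe sets, the cause of which was not tested. Of 1036 values for 74 uncalled treatment differences, 15 gained a call. Centring arrays on their medians moved the share of higher calls over all genes at 6 h to 72.8% from 49.3%, with 3 matrix genes higher and 1 lower, and for the difference between 24 h and 6 h to 41.2% from 59.8%.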

Other observations

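Of the 14 cell type markers that passed the filter, 9 were called at 72 h, and Ggt1, Tjp1, Vim, S100a4 and Cd14 were not. Of all 9016 genes tested, 27.4% were called higher and 19.8% lower at that hour. Slc4a4 (-2.76) and Aqp1 (-2.33), a bicarbonate transporter and a water channel of the proximal tubule, were lower in AA. The endothelial receptor gene Tek (-2.02) was lower, with an AA 72 h mean of 4.19 close to the floor. Cd68 (1.90), a lysosomal protein used as a macrophage marker, was higher, with a DMSO 72 h mean of 3.33 near the floor. Ptprc, which marks all white blood cells, lay near the floor on every array. Cd14, another macrophage marker, averaged 11.23 in AA 72 h and 11.20 in DMSO 72 h. Krt8 (0.55) and Ocln (0.53), an epithelial keratin and a tight junction protein, were higher, and Cdh2 (-0.33) was lower. These values were chosen after they had been seen and were not tested against the matrix genes.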
